A study of Mus musculus with 4 samples.

Results

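The transcripts of 10 genes that carry inhibitory or costimulatory signals between tumor cells, T cells and phagocytes were compared in mouse acute myeloid leukemia cells with and without Tet2. They were Cd274, Pdcd1lg2, Cd80, Cd86, Lgals9, Pvr, Vsir, Cd47, Sirpa and Cd200r1, taken by exact symbol from the 24589 entries of the deposited table, and all 10 were found and kept by the filter on low values. The Tet2 KO cells (2 libraries) came from bone marrow hematopoietic stem cells of Tet2-/- mice, whose deletion takes out exons 8 to 10, and the WT cells (2 libraries) came from wildtype marrow. Cells of both genotypes carried NRAS and AE9a, a truncated form of the AML1-ETO fusion that drives leukemia in mice, and received no other treatment. Both were grown in medium holding the cytokines SCF (50 ng/ml), IL-3 (10 ng/ml) and IL-6 (10 ng/ml) and the selection drugs G418 (1 mg/ml) and puromycin (2 µg/ml). The labels name a single cell line for all libraries and do not say whether a genotype was 1 clone or whether replicates were separate cultures. Levels are in TPM, the share of all transcripts scaled to a common total and corrected for transcript length. Levels of different genes can therefore be set side by side. The libraries hold RNA and no protein level, so a level or change given under a protein name is that of its transcript.

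Immune checkpoints are pairs of a ligand and a receptor that set how strongly an immune cell responds. PD-L1 (Cd274) and PD-L2 (Pdcd1lg2) engage the inhibitory receptor PD-1 on T cells, whereas CD80 and CD86 engage both the activating receptor CD28 and the inhibitory receptor CTLA-4. Galectin-9 (Lgals9) is a lectin that binds TIM-3, CD155 (Pvr) binds the activating receptor CD226 and the inhibitory receptors TIGIT and CD96, and VISTA (Vsir) restrains T cells from the surface of myeloid cells. CD47 is the "don't eat me" signal that binds SIRPA on phagocytes, and SIRPA and CD200R1 are inhibitory receptors of myeloid cells themselves. Leukemic myeloid cells can therefore carry ligands and receptors at the same time.

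Of the 10 genes, 2 rose in the Tet2 KO libraries (Lgals9 and Pvr), 4 fell (Pdcd1lg2, Sirpa, Cd274 and Vsir) and 4 did not pass (Cd86, Cd80, Cd200r1 and Cd47). The change was small for each, with KO to WT ratios of mean TPM between 0.594 for Pdcd1lg2 and 1.29 for Lgals9. Across the 11837 kept genes 30.5% were called, 18.9% higher and 11.6% lower, at an adjusted p under 0.05 from limma. That balance of 2237 higher and 1369 lower depended on the scaling, with 1643 higher and 1851 lower by trimmed-mean scaling, 631 and 1477 by spike-in scaling, and 1516 and 1880 with TPM rescaled without the granulocyte genes. The median log2 change was 0.06 over the 10 genes and 0.04 over all kept genes. Values of Tet2 KO and WT libraries did not overlap for 8 of the 10 genes, as was so for 68.6% of kept genes, so a lack of overlap says little by itself at 2 libraries against 2. With groups of 2, the smallest p from exact permutation is 0.333, and each call draws on the variance that limma estimates jointly from all genes. The calls of Sirpa and Lgals9 held under each of 18 alternative settings that asked for no least size of change. Those of Pdcd1lg2, Cd274, Vsir and Pvr were lost under some, as given beside each gene. A log2 change of at least 1, a further setting, was reached by none of the 10 genes.

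**Figure D1:**
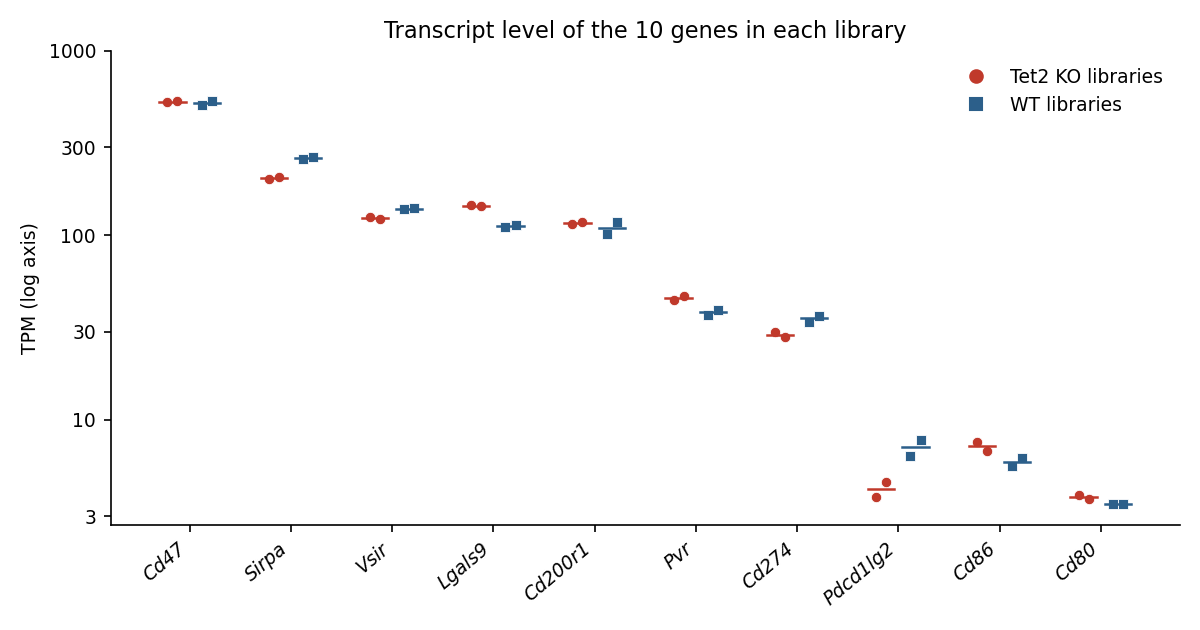
TPM on a log axis of each of the 10 genes in the 2 Tet2 KO libraries (red circles) and the 2 WT libraries (blue squares), with the group mean as a line. Cd47 lies above 500 TPM in all 4 libraries, and Cd80, Cd86 and Pdcd1lg2 lie below 8 TPM in all 4.

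The 10 genes differed widely in level. In Tet2 KO libraries the order of mean TPM was Cd47, Sirpa, Lgals9, Vsir, Cd200r1, Pvr, Cd274, Cd86, Pdcd1lg2 and Cd80. In WT libraries it was Cd47, Sirpa, Vsir, Lgals9, Cd200r1, Pvr, Cd274, Pdcd1lg2, Cd86 and Cd80. Lgals9 and Vsir changed places, with a Lgals9 to Vsir ratio of TPM of 1.17 and 1.17 in Tet2 KO libraries and 0.804 and 0.809 in WT libraries. Cd86 and Pdcd1lg2 also changed places, with a Cd86 to Pdcd1lg2 ratio of 1.98 and 1.47 in Tet2 KO libraries and 0.878 and 0.796 in WT libraries. These and 8 other ratios were compared, and each gave p = 0.333 by an exact two-sided permutation test, the smallest this design allows. Multiplying a library by a scaling factor leaves such a ratio as it is, whereas quantile scaling does not. Among neighbours in the order, the values of Pdcd1lg2 and Cd80 overlapped in Tet2 KO libraries, and those of Lgals9 and Cd200r1 overlapped in WT libraries. Cd47 stood at percentile 98.0 of kept genes in both Tet2 KO libraries and at percentiles 97.9 and 98.0 in the WT libraries, whereas Cd80 stood at percentiles 15.2 and 14.4 in Tet2 KO and 14.2 and 13.8 in WT.

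**Figure D2:**
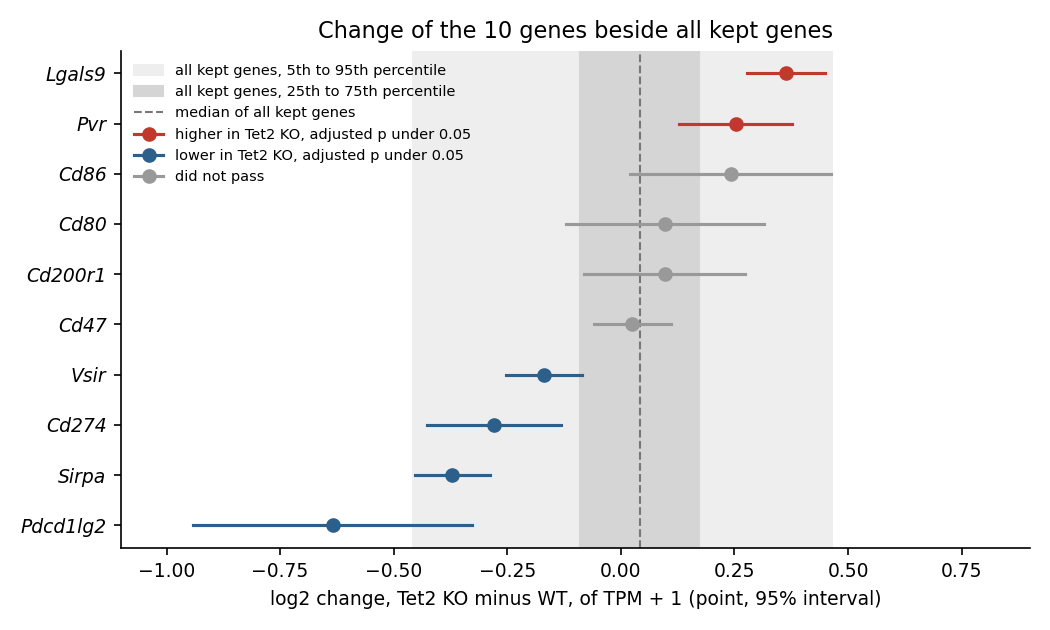
Log2 change of TPM + 1, Tet2 KO minus WT, with its 95% interval for each of the 10 genes, over bands from the 25th to the 75th and from the 5th to the 95th percentile of all kept genes. Pdcd1lg2 at -0.63 lies outside the wider band, which runs from -0.46 to 0.46, and the other 9 genes lie inside it.

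Series-wide measures bear on these comparisons. Between 11630 and 11731 genes reached 1 TPM in a library, read depth is unknown because TPM keep none, and Pearson's r of log2 values across kept genes, which are not independent replicates, was 0.992 in either group alone, against 0.979 to 0.982 across groups. The Tet2 gene, with 53.5 and 52.8 TPM in Tet2 KO libraries and 35.05 and 39.95 TPM in WT libraries, cannot check a deletion of 3 exons, so directions are drawn by the labels. Of 22 markers of myeloid progenitors and blasts 20 were kept, of which 7 rose, 8 fell and 5 did not pass (median log2 change -0.02), with the stem cell marker Cd34 at 0.46, the transcription factor gene Sox4 at 0.94, the protease gene Elane at -1.28 and the Fc receptor gene Fcgr2b at -0.57, while Flt3 and Hoxa9 stayed below 0.5 TPM. Over all kept genes 18.9% rose and 11.6% fell. Of 20 T, NK and B cell markers with an entry, 4 were kept, 5 were listed at 0 in all 4 libraries (Cd3e, Cd8b1, Ncr1, Gzma and Ms4a1), and their summed level was 65.2 to 68.8 TPM in Tet2 KO libraries and 42.8 to 44.2 TPM in WT libraries, most of it Nkg7. The 45S pre-ribosomal RNA entry stood at 14263 and 8814 TPM in Tet2 KO libraries and 5704 and 4350 TPM in WT libraries, and the summed spike-in entries at 34136 and 33853 TPM in Tet2 KO and 29764 and 33037 TPM in WT. Rescaling without both left each of the 10 calls as it was.

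PD-L1 and PD-L2, the ligands of PD-1, were both lower without Tet2. Cd274 had 30 and 28.0 TPM in Tet2 KO libraries, against 34.1 and 36.8 TPM in WT libraries. Both Tet2 KO values lay below both WT values, and the mean fell to 29.0 ± 1.42 TPM in Tet2 KO, against 35.4 ± 1.90 TPM in WT (SD, n = 2 each). The log2 change was -0.28 (SE 0.059, 95% interval -0.43 to -0.13, adjusted p = 0.021). Pdcd1lg2 had 3.83 and 4.60 TPM in Tet2 KO libraries, against 6.40 and 7.80 TPM in WT libraries. The groups were again separate, with means of 4.21 ± 0.544 TPM in Tet2 KO and 7.10 ± 0.990 TPM in WT (SD, n = 2 each). Its log2 change of -0.63 (SE 0.12, 95% interval -0.94 to -0.33, adjusted p = 0.016) was the largest of the 10 in size, and 5.83% of all kept genes changed by more. PD-L2 was also the less abundant PD-1 ligand, at a ratio to Cd274 of 0.128 and 0.164 in Tet2 KO libraries and 0.188 and 0.212 in WT libraries.

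The calls of both PD-1 ligands were lost when some single libraries were left out, while the changes kept their sign. Leaving out a library leaves fewer values to estimate the spread. A lost call alone therefore does not show that a single library carried a change. Without Tet2 KO replicate 1, Tet2 KO replicate 2 or WT replicate 2 the change of Cd274 was -0.33, -0.23 and -0.23 (adjusted p = 0.078, 0.13 and 0.071). The change of Pdcd1lg2 without the same libraries was -0.53, -0.74 and -0.51 (adjusted p = 0.10, 0.057 and 0.061). With no filter on low values the adjusted p was 0.052 for Cd274 and 0.056 for Pdcd1lg2. Over the 18 alternatives the adjusted p ran from 0.0075 to 0.13 for Cd274 and from 0.0032 to 0.10 for Pdcd1lg2, and the change stayed negative in every one. The change of Pdcd1lg2 was -0.39 with a pseudocount of 5 and -0.74 with a pseudocount of 0.1, as its level is low.

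The promoters of the called genes are shown because Lgals9 and Pdcd1lg2 moved in opposite directions, as did interferon-stimulated and IL-4-induced genes described further on. The windows are the 250 bases before the annotated start in RefSeq on GRCm38.p6, and of the called genes Lgals9, Pdcd1lg2, Cd274 and Vsir have an entry there. Capitals mark matches to 3 motifs searched on both strands: the interferon-stimulated response element as GAAA, any 2 bases and GAAA, the STAT element of interferon-gamma signalling as TTC, any 3 bases and GAA, and the wider STAT6 element as TTC, any 4 bases and GAA.
Lgals9, chr11:78984925-78985174, minus strand: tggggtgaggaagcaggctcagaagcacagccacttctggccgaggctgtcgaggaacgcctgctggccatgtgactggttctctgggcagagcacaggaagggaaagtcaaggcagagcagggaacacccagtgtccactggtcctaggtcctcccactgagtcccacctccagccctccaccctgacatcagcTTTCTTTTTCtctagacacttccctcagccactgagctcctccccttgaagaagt
Pdcd1lg2, chr19:29410669-29410918, plus strand: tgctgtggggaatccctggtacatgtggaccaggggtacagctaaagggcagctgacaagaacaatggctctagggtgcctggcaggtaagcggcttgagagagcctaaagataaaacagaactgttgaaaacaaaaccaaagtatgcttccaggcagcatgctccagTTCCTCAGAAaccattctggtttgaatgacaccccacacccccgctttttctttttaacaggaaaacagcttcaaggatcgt
Cd274, chr19:29367188-29367437, plus strand: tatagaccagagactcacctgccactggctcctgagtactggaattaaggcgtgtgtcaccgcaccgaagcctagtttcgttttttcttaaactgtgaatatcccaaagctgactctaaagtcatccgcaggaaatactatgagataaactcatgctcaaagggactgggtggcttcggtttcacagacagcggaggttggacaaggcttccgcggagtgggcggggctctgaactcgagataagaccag
Vsir, chr10:60346601-60346850, plus strand: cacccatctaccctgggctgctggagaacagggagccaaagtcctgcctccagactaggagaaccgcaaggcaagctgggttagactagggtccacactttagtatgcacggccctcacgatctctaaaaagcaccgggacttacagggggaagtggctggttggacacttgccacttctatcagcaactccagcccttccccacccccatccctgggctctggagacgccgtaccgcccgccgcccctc

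The Lgals9 window held 1 match to the interferon-stimulated response element, read on the other strand as TTTCTTTTTC from 55 to 46 bases before the start. Of 32851 promoter windows 2.98% hold this motif. The Pdcd1lg2 window held 1 match to the STAT6 element, TTCCTCAGAA, from 82 to 73 bases before the start, and 5.85% of windows hold it. The Cd274 and Vsir windows held none of the 3 motifs, nor did those of Cd80 and Cd47, and no matches overlapped each other. The shorter STAT motif was in 7.02% of windows. CpG dinucleotides, the substrate of Tet2 where methylated, numbered 3 in the Lgals9 and Pdcd1lg2 windows, 11 in that of Cd274 and 9 in that of Vsir. Cd47, whose level did not pass, had 30 or 31 in its pair of overlapping windows, at or above the 94.8th percentile of all windows, and Cd80 had 3. These are descriptions of letters, and neither methylation nor binding was measured.

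Cd274 and Pdcd1lg2 are neighbours on chromosome 19 of GRCm38, from 29367455 to 29388095 and from 29410919 to 29471161, both on the plus strand and 22.8 kb apart. Their other neighbours were looked up after the values of the pair were known. Of 11 coding genes within 300 kb of the pair, 9 were kept, and beside the pair only Plgrkt, a plasminogen receptor, was called. Plgrkt starts 0.06 kb from Cd274 on the other strand and had 86.2 and 89.3 TPM in Tet2 KO libraries, against 99.4 and 98.6 TPM in WT libraries (log2 change -0.17, adjusted p = 0.020). The call of Plgrkt was lost without Tet2 KO replicate 1 (adjusted p = 0.15), without Tet2 KO replicate 2 (adjusted p = 0.091) and without WT replicate 1 (adjusted p = 0.066) and without a variance trend (adjusted p = 0.060), and its adjusted p over all alternatives ran from 0.0088 to 0.15. Jak2, the kinase of the interferon-gamma receptor, lies on the same side and had 69.4 and 67.6 TPM in Tet2 KO libraries and 72.4 and 75.1 TPM in WT libraries (log2 change -0.10, adjusted p = 0.097).

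**Figure D3:**
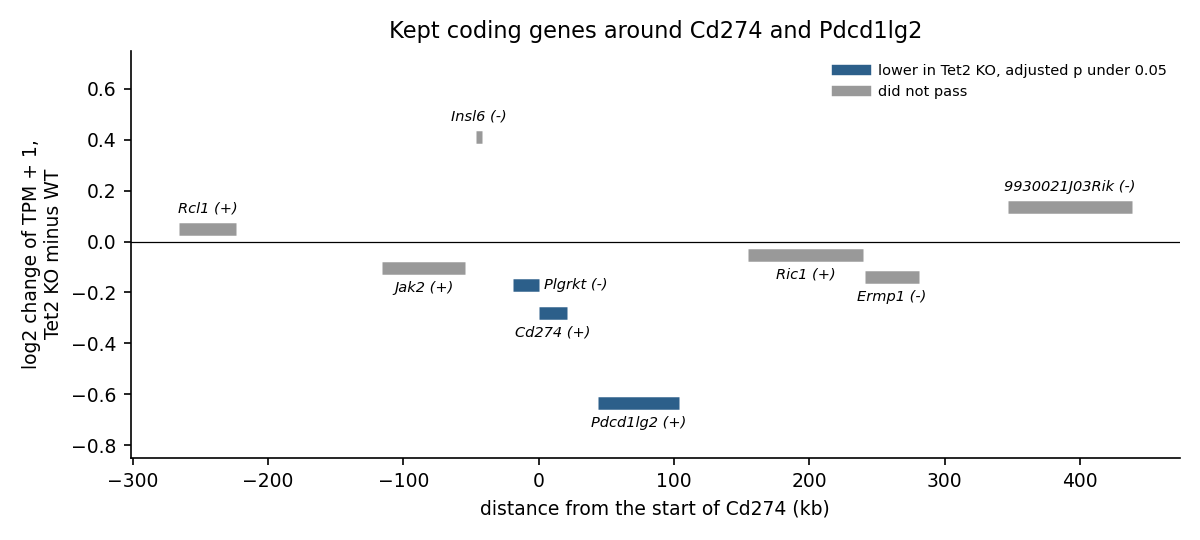
Kept coding genes around Cd274 and Pdcd1lg2, drawn to scale by distance in kb from the start of Cd274 with the strand in parentheses, against log2 change of TPM + 1, Tet2 KO minus WT. Plgrkt, Cd274 and Pdcd1lg2 (blue) stand next to each other at -0.17, -0.28 and -0.63, and the other 6 kept genes (grey) did not pass.

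The CD28 and CTLA-4 ligands were scarce and neither passed. Cd86 had 7.58 and 6.78 TPM in Tet2 KO libraries, against 5.62 and 6.21 TPM in WT libraries. Its groups did not overlap, with Tet2 KO above WT, but its log2 change of 0.24 (SE 0.088, 95% interval 0.02 to 0.46) had an adjusted p of 0.093. Cd80 had 3.91 and 3.72 TPM in Tet2 KO libraries, against 3.48 and 3.52 TPM in WT libraries, a log2 change of 0.10 (SE 0.087, 95% interval -0.12 to 0.31, adjusted p = 0.44). CD86 was the more abundant of the pair in all 4 libraries, at a Cd86 to Cd80 ratio of 1.94 and 1.82 in Tet2 KO and 1.61 and 1.76 in WT. The intervals, unlike the adjusted p, take no account of the number of genes tested. That of Cd86 spans only rises, and that of Cd80 spans falls and rises.

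Galectin-9 and CD155 were higher without Tet2. Lgals9 had 146 and 143 TPM in Tet2 KO libraries, against 111 and 114 TPM in WT libraries. The groups stood well apart, at 144.9 ± 2.30 TPM in Tet2 KO and 112.4 ± 1.97 TPM in WT (SD, n = 2 each), a log2 change of 0.36 (SE 0.034, 95% interval 0.28 to 0.45, adjusted p = 0.0019). The adjusted p of Lgals9 stayed under 0.05 in all 18 alternatives, from 5.4e-04 to 0.0497, the highest with spike-in scaling (log2 change 0.25). Pvr had 44.9 and 46.6 TPM in Tet2 KO libraries, against 37.0 and 39.5 TPM in WT libraries. Its values were separate as well, at 45.8 ± 1.25 TPM in Tet2 KO and 38.3 ± 1.81 TPM in WT (SD, n = 2 each), a log2 change of 0.25 (SE 0.050, 95% interval 0.13 to 0.38, adjusted p = 0.017). The Pvr call was lost without Tet2 KO replicate 1 (0.28, adjusted p = 0.090), without Tet2 KO replicate 2 (0.23, adjusted p = 0.12) and without WT replicate 1 (0.21, adjusted p = 0.059). Scaling to the spike-ins also ended it (0.14, adjusted p = 0.21). Its adjusted p over all alternatives ran from 0.0091 to 0.21.

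Among other ligands of the same receptors, Nectin2 and Ceacam1 fell, whereas Nectin4 (0.31, adjusted p = 0.12) and Hmgb1 (0.10, adjusted p = 0.33) did not pass and Nectin3 was below the filter. Nectin2, a nectin that shares the receptors CD226 and TIGIT with CD155, had 2.95 and 2.20 TPM in Tet2 KO libraries, against 7.91 and 7.54 TPM in WT libraries, and fell (log2 change -1.29, SE 0.12, adjusted p = 0.0019). The Pvr to Nectin2 ratio was 15.2 and 21.2 in Tet2 KO libraries and 4.68 and 5.24 in WT libraries. Ceacam1, an adhesion molecule that like galectin-9 is a ligand of TIM-3, had 55.4 and 54.6 TPM in Tet2 KO libraries, against 94.7 and 105.9 TPM in WT libraries, and fell (log2 change -0.85, SE 0.059, adjusted p = 7.1e-04). The Lgals9 to Ceacam1 ratio was 2.65 and 2.62 in Tet2 KO libraries and 1.17 and 1.07 in WT libraries. Galectin-3 (Lgals3) fell by 0.69 and galectin-1 (Lgals1) rose by 0.34 on the log2 scale, the Lgals1 call being lost with spike-in scaling (0.23, adjusted p = 0.12, the highest of its alternatives, which began at 4.1e-04). Of 28 other checkpoint ligands and related surface genes 19 were kept, of which 2 rose, 5 fell and 12 did not pass, with a median log2 change of 0.03, where 18.9% of all kept genes rose and 11.6% fell.

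VISTA was modestly lower without Tet2. Vsir had 125 and 123 TPM in Tet2 KO libraries, against 138 and 141 TPM in WT libraries. The groups did not overlap, at 123.9 ± 1.76 TPM in Tet2 KO and 139.4 ± 1.85 TPM in WT (SD, n = 2 each), a log2 change of -0.17 (SE 0.033, 95% interval -0.25 to -0.09, adjusted p = 0.017). The call was lost without Tet2 KO replicate 1 (-0.18, adjusted p = 0.11), without Tet2 KO replicate 2 (-0.15, adjusted p = 0.14) and without a variance trend (adjusted p = 0.057), and the adjusted p over all alternatives ran from 0.0068 to 0.14. Igsf11, a reported VISTA partner named here after its values were seen, stayed at or below 0.1 TPM in all 4 libraries.

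CD47 was the most abundant of the 10 transcripts and did not pass, whereas its receptor SIRPA fell. Cd47 had 529 and 532 TPM in Tet2 KO libraries, against 511 and 532 TPM in WT libraries. The groups overlapped, and the log2 change of 0.02 had a 95% interval of -0.06 to 0.11 (SE 0.034, adjusted p = 0.62), with a sign that turned under 4 alternatives. Sirpa had 201 and 206 TPM in Tet2 KO libraries, against 261 and 266 TPM in WT libraries. Its groups were separate, at 203.5 ± 4.08 TPM in Tet2 KO and 263.4 ± 4.0 TPM in WT (SD, n = 2 each), a log2 change of -0.37 (SE 0.033, 95% interval -0.45 to -0.29, adjusted p = 0.0016). The change of Sirpa lay between -0.49 and -0.35 and its adjusted p between 4.2e-04 and 0.039 over the 18 alternatives. The Cd47 to Sirpa ratio was 2.64 and 2.58 in Tet2 KO libraries and 1.96 and 2.00 in WT libraries.

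Of 29 other genes of the CD47 and SIRPA axis 27 were kept, of which 2 rose, 10 fell and 15 did not pass, with a median log2 change of -0.07. Of all kept genes 18.9% rose and 11.6% fell, with a median of 0.04. Qpctl, the glutaminyl cyclase that modifies the amino end of CD47 so that SIRPA can bind it, had 13.7 and 13.6 TPM in Tet2 KO libraries, against 16.8 and 17.4 TPM in WT libraries, and fell (log2 change -0.30, adjusted p = 0.011). The secreted cyclase Qpct fell by 1.40 on the log2 scale, and thrombospondin 1 (Thbs1), a soluble CD47 ligand, fell by 0.16. The integrin chains Itgb2 and Itgam, which pair as a complement receptor that assists phagocytosis, fell by 0.62 and 0.39. Itgam is also counted in the granulocyte and progenitor lists, so its falls in these lists are not separate observations. The 2 genes that rose were Fyb (0.36) and Nfkb1 (0.17), and with trimmed-mean scaling or spike-in scaling only 1 gene of the list rose. Sirpb1a, an activating paralog of SIRPA, fell by 0.31, while Sirpb1b had a change of -0.12 (adjusted p = 0.074). The phosphatases that SIRPA recruits did not pass, with a change of -0.05 for Ptpn6 (adjusted p = 0.29) and of 0.00352 for Ptpn11 (adjusted p = 0.96). Without Tet2 KO replicate 1 or Tet2 KO replicate 2 only 4 and 3 genes of this list fell, and the calls of Qpctl (adjusted p = 0.079 and 0.082) and Thbs1 (adjusted p = 0.18 and 0.13) were lost. The Sirpb1a call was lost without Tet2 KO replicate 2, WT replicate 1 or WT replicate 2 (adjusted p = 0.10, 0.088 and 0.074). Over all alternatives the adjusted p ran from 0.0060 to 0.082 for Qpctl, from 0.0082 to 0.18 for Thbs1 and from 0.010 to 0.10 for Sirpb1a.

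The CD200 receptor did not pass. Cd200r1 had 116 and 119 TPM in Tet2 KO libraries, against 102 and 118 TPM in WT libraries. The groups overlapped, and the WT libraries differed by more than the Tet2 KO libraries, with means of 117.2 ± 1.91 TPM in Tet2 KO and 109.8 ± 11.3 TPM in WT (SD, n = 2 each), a log2 change of 0.10 (SE 0.071, 95% interval -0.08 to 0.27, adjusted p = 0.35). Without WT replicate 2 it was called higher (0.20), and without WT replicate 1 the change was -0.0078. Over all alternatives the change of Cd200r1 ran from -0.019, with spike-in scaling, to 0.20. Its ligand Cd200, named after its values were seen, stayed at or below 0.2 TPM in all 4 libraries. Dok2, the adaptor through which CD200R1 signals, had 45.8 and 44.1 TPM in Tet2 KO libraries, against 68.6 and 69.9 TPM in WT libraries, and fell (log2 change -0.61, SE 0.040, adjusted p = 5.8e-04), while Dok1 had a change of 0.02 (adjusted p = 0.78). The share over all kept genes was 18.9% higher and 11.6% lower. Of the 9 adaptor genes 1 rose (Nck2, a call lost without any single library and under 5 other settings at an adjusted p under 0.05), 1 fell and 7 did not pass, with a median of 0.03.

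**Figure D4:**
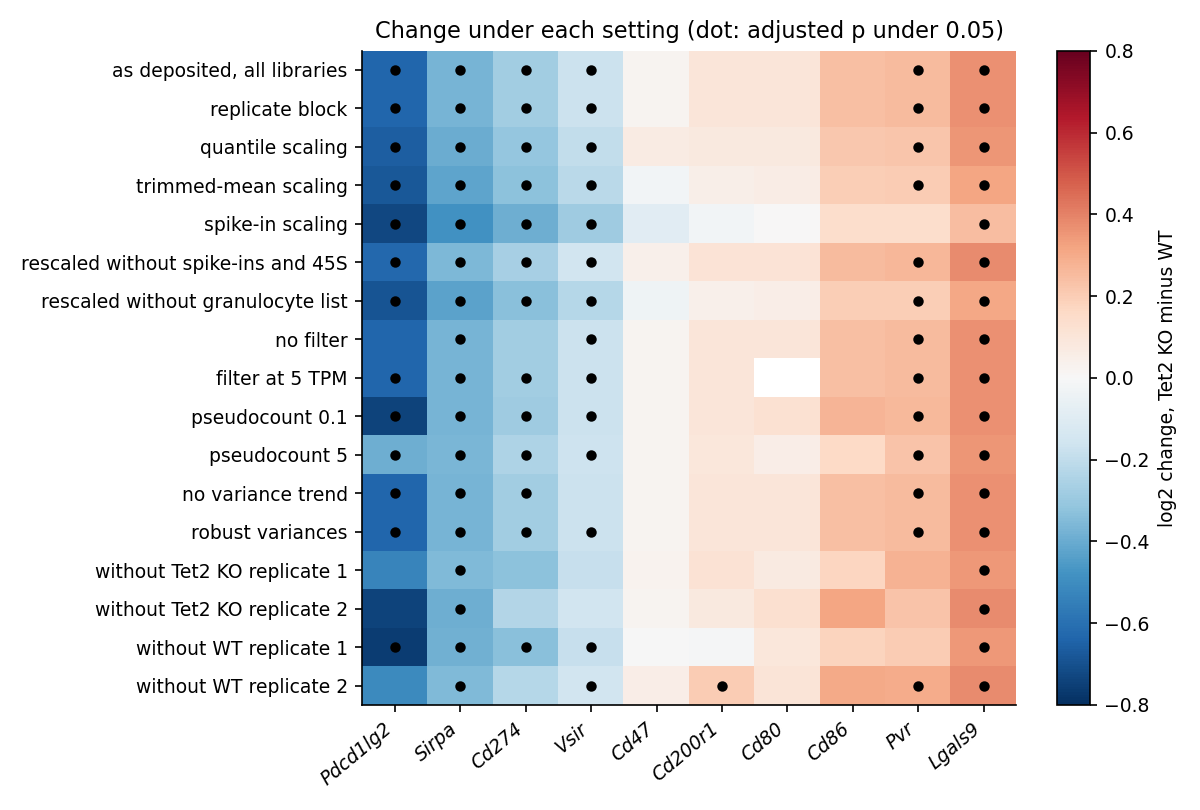
Log2 change, Tet2 KO minus WT, of the 10 genes (columns) under each setting (rows), with a dot where the adjusted p was under 0.05. The white cell is Cd80, which a filter at 5 TPM removed. Sirpa and Lgals9 have a dot in every row, and Pdcd1lg2, Cd274, Vsir and Pvr lose it in rows that leave out a library.

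Of the receptors for these ligands, Pdcd1, Ctla4 and Cd226 were below the filter, and Cd28, Havcr2, Tigit and Cd96 were kept. Of 20 checkpoint receptors and costimulatory genes 9 were kept, of which 2 rose, 2 fell and 5 did not pass, with a median log2 change of -0.00074. Over all kept genes 18.9% rose and 11.6% fell. Pdcd1, which encodes PD-1, was listed at 0 and 0.04 TPM in Tet2 KO and at 0 in both WT libraries, and Ctla4 was listed at 0 in both Tet2 KO libraries and at 0.08 and 0.03 TPM in WT. Cd28 was kept, with 17.2 and 16.3 TPM in Tet2 KO libraries and 14.7 and 15.8 TPM in WT libraries (log2 change 0.12, adjusted p = 0.18). Havcr2, which encodes TIM-3, had 2.86 and 3.25 TPM in Tet2 KO and 3.47 and 3.80 TPM in WT (-0.19, adjusted p = 0.21). Tigit had 1.51 and 2.15 TPM in Tet2 KO libraries, against 4.56 and 3.64 TPM in WT libraries, and fell (-0.85, SE 0.16, adjusted p = 0.014), a call lost without Tet2 KO replicate 1 (adjusted p = 0.081) or WT replicate 1 (adjusted p = 0.071), its alternatives running from 0.0046 to 0.081. The activating receptor CD226 (Cd226, named after its values were seen) had 0.53 and 0.57 TPM in Tet2 KO and 0.77 and 0.73 TPM in WT, below the filter. The receptor Cd244 and its ligand Cd48, which act between hematopoietic cells, rose together. Cd244 had 25.2 and 25.3 TPM in Tet2 KO libraries, against 15.2 and 14.4 TPM in WT libraries (0.73, adjusted p = 6.9e-04), and Cd48 had 267 and 253 TPM in Tet2 KO, against 157 and 171 TPM in WT (0.66, adjusted p = 0.0011).

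Of 31 kept regulators of PD-L1 7 rose, 1 fell and 23 did not pass, with a median log2 change of 0.09. The share that rose was near the 18.9% of all kept genes, so the count is no result about these regulators. The gene that fell was Ifngr1, the ligand-binding chain of the interferon-gamma receptor, with 119.9 and 119.8 TPM in Tet2 KO libraries, against 156 and 169 TPM in WT libraries (-0.43, SE 0.046, adjusted p = 0.0027). Irf9, a transcription factor of the interferon response, and Socs3, a feedback inhibitor of JAK kinases, rose by 0.44 and 0.33, the Socs3 call being lost with spike-in scaling (0.21, adjusted p = 0.081, the highest of its alternatives, which began at 0.0013). Irf1 (0.14, adjusted p = 0.21), a transcription factor that carries interferon-gamma signals to Cd274, did not pass. Cmtm6, which keeps PD-L1 protein from degradation, passed narrowly (0.13, adjusted p = 0.045), a call lost at that threshold of 0.05 under 12 settings, among them leaving out any single library (adjusted p from 0.075 to 0.24) and spike-in scaling (0.01, adjusted p = 0.91, the highest). With spike-in scaling 1 regulator rose and 1 fell, and without Tet2 KO replicate 1 or Tet2 KO replicate 2 there were 2 and 1 in each case.

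Cd274 and Pdcd1lg2 fell while interferon-stimulated genes rose and IL-4-induced genes fell. The share over all kept genes was 18.9% higher and 11.6% lower. Of 42 interferon-stimulated genes 40 were kept, of which 34 rose, 0 fell and 6 did not pass, with a median log2 change of 0.70. Ifitm1 (1.74), Ifitm3 (0.85), Ifi203 (1.60) and Ifi204 (1.21) had the smallest p. Lgals9 rose with this list, and Cd274, whose promoter is known to respond to interferon, fell. A list drawn up with earlier results known held 22 genes that IL-4 and IL-13 induce in macrophages, or that act in their signalling. Of these 21 were kept, of which 1 rose (Il4ra), 17 fell (Stat6 among them) and 3 did not pass, with a median of -1.52. Arg1 (-4.78) and Retnla (-4.93) fell most, and Pdcd1lg2, which IL-4 induces through STAT6 in mouse macrophages, moved the same way. A part of interferon or IL-4 signalling in the changes of Lgals9, Cd274 and Pdcd1lg2 was not tested. Stat6 itself had 96.3 and 94.3 TPM in Tet2 KO libraries, against 109 and 114 TPM in WT libraries (-0.22, adjusted p = 0.012), and Il4ra, the IL-4 receptor chain, had 53.8 and 52.5 TPM in Tet2 KO, against 43.0 and 43.5 TPM in WT (0.29, adjusted p = 0.0049). Both calls were lost without Tet2 KO replicate 1 (adjusted p = 0.087 for Stat6 and 0.064 for Il4ra) and without Tet2 KO replicate 2 (adjusted p = 0.11 and 0.052), and over all alternatives the adjusted p ran from 0.0049 to 0.11 for Stat6 and from 0.0023 to 0.14 for Il4ra.

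Most markers of maturing granulocytes and dendritic cells fell, while macrophage and monocyte markers were mixed. Over all kept genes 18.9% rose and 11.6% fell. Of 31 granulocyte maturation genes, all kept, 29 fell, 1 rose and 1 did not pass, and their summed level was 51895 and 52380 TPM in Tet2 KO libraries and 89835 and 87601 TPM in WT libraries. Of 21 dendritic cell markers 14 were kept, of which 11 fell, 1 rose and 2 did not pass. Their summed level was 602 and 604 TPM in Tet2 KO libraries and 1553 and 1554 TPM in WT libraries. Most of it was Cd74 (375 and 364 TPM in Tet2 KO, 727 and 707 TPM in WT) and Mgl2 (64.2 and 63.0 TPM in Tet2 KO, 417 and 420 TPM in WT). Some of these markers, Mgl2 among them, are also in the list induced by IL-4 and IL-13, so the falls of these lists are not separate observations. The dendritic cell receptors Xcr1, Clec9a, Cd209a and Siglech stayed at or below 0.48 TPM in all 4 libraries. Of 24 macrophage and monocyte markers 20 were kept, of which 8 fell, 4 rose and 8 did not pass, with a median log2 change of -0.13. Among them Ccr2 (0.94), Cx3cr1 (1.34) and Adgre1 (0.21) rose. The list had a summed level of 9819 and 9693 TPM in Tet2 KO libraries and 15003 and 14799 TPM in WT libraries, most of it lysozyme (Lyz2), at 6701 and 6605 TPM in Tet2 KO libraries and 11142 and 10787 TPM in WT libraries. Marco and Clec4f, markers of tissue macrophages, were listed at 0 in all 4 libraries, and the macrophage receptor Csf1r had 79.3 and 75.2 TPM in Tet2 KO and 81.6 and 81.5 TPM in WT (-0.08, adjusted p = 0.20). The part of these cells in the changes of the 10 genes was not tested. In bulk libraries fewer cells of a type and less RNA per cell cannot be told apart. Rescaling TPM without the granulocyte genes only multiplies each library by a factor, so it cannot take out the part of these cells. With this scaling the same 2 of the 10 genes rose and the same 4 fell, with a change of 0.31 for Lgals9 and -0.43 for Sirpa.

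**Figure D5:**
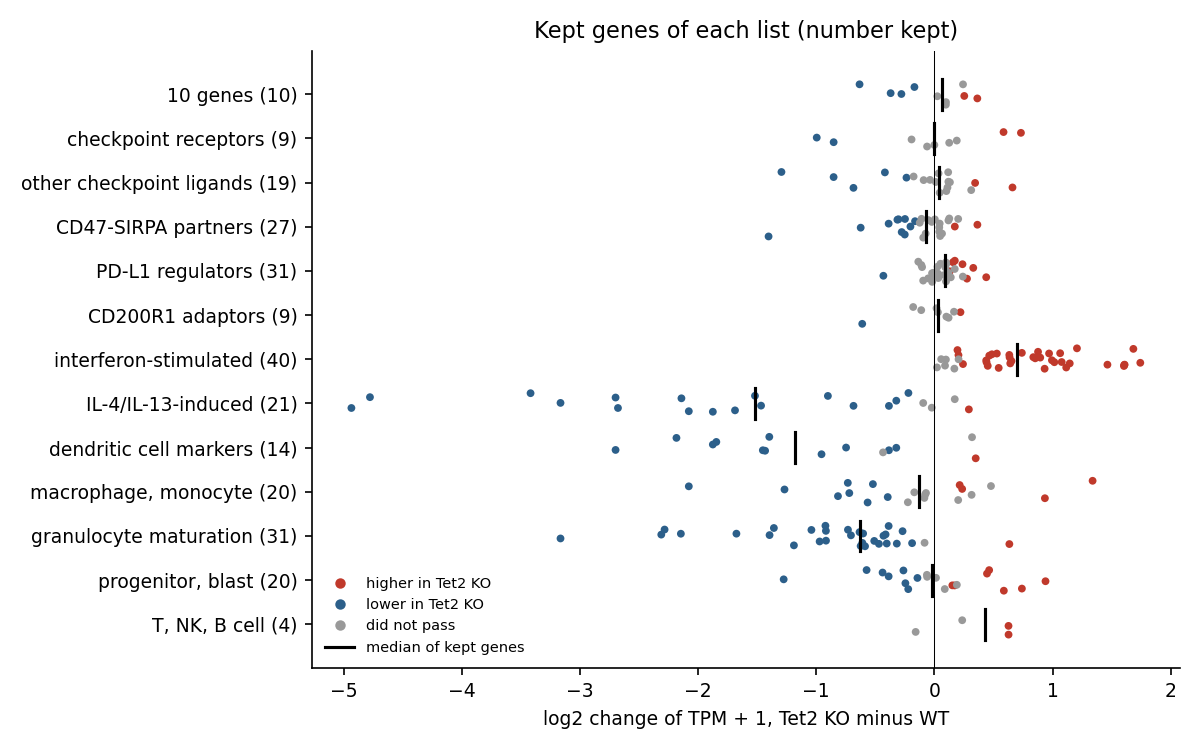
Log2 change of TPM + 1, Tet2 KO minus WT, of the kept genes in each list (points, moved up or down at random for legibility), with the list median as a black line. The 10 genes lie between -0.63 and 0.36, and the interferon-stimulated genes have a median of 0.70. The IL-4/IL-13-induced and dendritic cell genes, lists that share some genes, have medians of -1.52 and -1.18.

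Few stretches of these transcripts occur in other genes. Of all 50-base stretches in the longest coding transcript in GENCODE M21, 2.17% in Cd200r1 also occurred in Cd200r4 or the pseudogene Gm17928, 1.68% in Cd274 and 0.769% in Cd47 occurred in many unrelated genes, and none in the other 7 genes occurred in a transcript of another gene. Cd200r4, the adjacent paralog, had 186 and 183 TPM in Tet2 KO libraries and 162 and 180 TPM in WT libraries (log2 change 0.12, adjusted p = 0.17). Genes on the opposite strand overlap Pdcd1lg2 (A930007I19Rik, at most 0.23 TPM) and Vsir (Cdh23, at most 0.17 TPM), and for Cd274 and Pvr the overlapping antisense entries were not analysed here. On GRCm38, Cd86 (36603869 to 36666081, minus strand), Cd80 (38455561 to 38496335, plus), Cd200r1 (44765736 to 44794978, plus) and Cd47 (49800533 to 49915010, plus) lie on chromosome 16 within 13.3 Mb. Sirpa lies on chromosome 2 (129592835 to 129632228, plus), Lgals9 on chromosome 11 (78962974 to 78984946, minus), Pvr on chromosome 7 (19903578 to 19921160, minus) and Vsir on chromosome 10 (60346851 to 60372684, plus). TPM were given per gene, so no exon or transcript form was told apart.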

How the data were processed

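RNA was sequenced in 4 libraries, 2 labelled Tet2 KO and 2 labelled WT, from total RNA taken with QIAzol and a KAPA stranded mRNA kit, per the labels' protocols. The authors deposited a single table of TPM, a unit read from the values, since each column sums to 1000000. The submitters' processing notes name STAR, RSEM and mm10; versions, annotation and strand setting are not given here. The table has 92 spike-in entries, left out of tests, and 27 gene names turned into dates, left unnamed.

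Genes with at least 1 TPM in 2 libraries were kept (11837). Values were compared as log2(TPM + 1) with limma 3.58.1 in R 4.3.3 (variance trend, no block, 2 residual degrees of freedom and a prior of 3.51), Tet2 KO minus WT, which understates changes at low TPM. All adjusted p are two-sided, by the Benjamini-Hochberg method over all kept genes, and SE are moderated. Nothing says that replicates were separate cultures, so p-values may reflect technical spread alone. The limma step was checked on simulated data.

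The 10 genes, the 12 lists (9 to 42 genes) and the rule for named genes (all 10, then per list up to 4 with the smallest p and up to 4 tied to them by role) were chosen with earlier results of these data known. Not every gene that the rule picked is named, and none of the 4 with the smallest p in the granulocyte list is. Genes named outside the rule after their values were seen are Cd200, Cd226, Igsf11, Plgrkt, Ptpn11, Sirpb1b, Dok1, Irf1, Jak2, Stat6, Il4ra, Csf1r, Nectin3, Nectin4, Hmgb1, Cx3cr1, Adgre1 and markers named for being near 0. Fyb and Nfkb1 were also named outside it, with their values known. Alternatives were scaling (quantile, trimmed-mean, spike-in, 2 rescalings), filters, pseudocounts, variance models, thresholds, a replicate block and leaving out each library.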

Additional observations from a re-analysis of the deposited data

How the results depend on the processing

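Of 179 recalculations of the 10 changes, 153 kept direction and side of the threshold, 19 lost a call, 1 gained a call and 6 turned sign. The sign turned for Cd47 with trimmed-mean scaling (-0.025), with spike-in scaling (-0.092), rescaled without the granulocyte genes (-0.032) and without WT replicate 1 (-0.0050). It turned for Cd200r1 with spike-in scaling (-0.019) and without WT replicate 1 (-0.0078). Leaving out each library gave a change of -0.0050 to 0.054 for Cd47 and of -0.0078 to 0.20 for Cd200r1. Of the 10 genes 2 rose and 4 fell. Those higher numbered 1 with spike-in scaling and with an adjusted p under 0.01, and 0 at a log2 change of at least 1. Those lower numbered 2 with no filter, 1 with an adjusted p under 0.01 and 0 at a log2 change of at least 1. Leaving out each library in turn gave 1 to 3 higher and 1 to 4 lower. Over all kept genes 2237 rose and 1369 fell. An adjusted p under 0.01 gave 839 and 666, and a log2 change of at least 1 gave 66 and 165. Spike-in scaling, which lowered the median of all genes by 0.11 to -0.07, gave 631 higher and 1477 lower. Leaving out each library gave from 500 to 1910 higher and from 515 to 995 lower. Relative to that median, with spike-in scaling Pvr changed by 0.21 and Lgals9 by 0.32. The cause of these differences was not tested, except that stricter thresholds call fewer genes by construction and leaving out a library leaves fewer residual degrees of freedom.

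The replicate numbers are not stated to pair samples, and same-numbered libraries did not deviate together (r = -0.11). With a replicate block 2 of the 10 genes rose and 4 fell, and over all genes 1888 rose and 1183 fell. With the numbers crossed, an alternative chosen after seeing the data, the counts were 2 and 4 of the 10, and 2136 and 1327 over all genes. Depth is unknown, so no counting error could be given for Cd80, Cd86 or Pdcd1lg2.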
